A study of Mus musculus with 2 samples.

Results

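The genes described here are the RNA helicase and exosome genes of the mouse, namely all protein-coding genes whose symbols start with Ddx, Dhx or Exosc followed by a digit. In the GENCODE M21 basic annotation they numbered 63 of 21938 protein-coding genes on the autosomes and sex chromosomes, with 37 Ddx, 16 Dhx and 10 Exosc genes spread over 18 chromosomes. YY1 binding was mapped by ChIP-seq, in which an antibody pulls down the DNA bound by a protein, in MuSCs (muscle stem cells). The study describes the cells as freshly isolated, and its reporting summary says that they were mixed from Ctrl mice, which carry Pax7 CreERT2 and R26YFP alleles, both Yy1 copies (Yy1 +/+) and the dystrophin-deficient mdx background. The sample labels instead speak of wild-type cells and a culture medium. The Cre allele acts in cells that express Pax7, and the samples hold no cells with Yy1 deleted. The background library, input by its label and IgG in the methods, was not analysed on its own and enters here through the local background of each peak. With 1 YY1 library there is no spread between animals or libraries, no test between groups was possible, and no interval given covers more than counting error.

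Most DEAD-box (Ddx) and DEAH-box (Dhx) helicases use ATP to unwind or remodel RNA, and they work in splicing, ribosome assembly, mRNA export, translation and decay. The RNA exosome degrades and trims RNA from the 3′ end. It is built as a ring of the subunits Exosc4 to Exosc9, topped by a cap of Exosc1, Exosc2 and Exosc3, and the nuclease Exosc10 docks on it in the nucleus. YY1 is a zinc-finger transcription factor that binds many promoters at a short sequence with ATGGC at its core.

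A gene was counted as bound when the summit of a YY1 peak, the base with the highest pileup of fragments, lay within 1000 bp of a transcript start. By this rule 30 of the 63 genes were bound, which is 47.6% (95% exact interval 34.9 to 60.6%), beside 18.8% of all protein-coding genes. Each of the 30 had exactly 1 such peak, and the 30 peaks were distinct. The share was 48.6% for Ddx genes (18 of 37), 43.8% for Dhx genes (7 of 16) and 50% for exosome genes (5 of 10), and the intervals of the families overlapped widely. When a fold enrichment of at least 5 was also required, 20 members (31.7%) remained, beside 11.1% of all protein-coding genes. Of the exosome subunits, 5 of the 6 in the ring were bound and none of the 3 in the cap, nor the nuclease. The intervals of these small groups overlap (35.9 to 99.6% for the ring and 0 to 70.8% for the cap), and the cap subunit Exosc3 was bound when the annotated gene start or the comprehensive annotation was used, so no difference between ring and cap is shown.

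Most of these genes start in CpG-rich DNA. Within 250 bp either side of the annotated gene start, and asking for at least 50% GC and a CpG ratio (observed over expected) of at least 0.6, 57 of the 63 members (90.5%) had a CpG-rich start, beside 47.6% of all protein-coding genes. Among protein-coding genes with such a start 33.9% were bound, and among those without it 5.03% (579 of 11505). Within the CpG-rich starts, 29 of the 57 members were bound, which is 50.9% (37.3 to 64.4%). The 6 members without a CpG-rich start were Ddx28, Ddx3y, Ddx47, Ddx60, Dhx32 and Dhx58, of which Ddx28 was bound. The members' share thus stands beside 33.9% for starts of like composition and 18.8% for all genes, and the part of base composition in it was not tested.

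The sequences at the summits show what these sites hold. The study's YY1 motif, AANATGGC with any base at N, was sought on either strand up to 100 bp from the summit, and 4 of the 30 bound members (13.3%, 3.76 to 30.7%) had it, beside 8.11% of all bound protein-coding genes. All 4 copies ran along the strand of the gene. They are given from the GRCm38 genome, 5′ to 3′ on the gene's strand, with the motif in capitals.
Ddx23 (chr15:98662861-98662890, minus strand): tggaaacgcgaAAGATGGCgactgttcggc
Dhx35 (chr2:158794638-158794667, plus strand): atccgagagacAATATGGCcgcgcggcatc
Ddx1 (chr12:13249104-13249133, minus strand): aggagtgcgggAAGATGGCggccttctccg
Ddx28 (chr8:106011409-106011438, minus strand): gcatcaagggaAATATGGCtttagccgggc
In Ddx1 and Ddx28 the ATG of the motif is the annotated start codon of the gene, so the same letters are both coding sequence and a YY1 motif. In Ddx23 the motif lies just inside the transcript, and in Dhx35 it lies upstream of the start.

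Motif letters at a start codon were also found where no peak was called. Over all protein-coding genes with an annotated start codon, 959 of 21653 (4.43%) had AANATGGC with its ATG as that codon, and 29.1% of them were bound, beside 18.5% of the genes without it. Among the members 6 of 63 (9.52%) had it. Besides Ddx1 and Ddx28 these were the bound gene Exosc8, whose codon lay 411 bp from the summit and outside the peak, and 3 genes that were not bound. Those are shown with the motif in capitals.
Exosc8 (chr3:54735009-54735038, minus strand): agcgggccggaAAAATGGCggctgggttca
Exosc10 (chr4:148558454-148558483, plus strand): cctaggacggaAAAATGGCgcctcccagtc
Exosc2 (chr2:31670726-31670755, plus strand): tcattggcgccAAGATGGCgttggagatga
Ddx47 (chr6:135011628-135011657, plus strand): agcccacgagcAAGATGGCggcggacgagg
The nearest YY1 summit lay 32960 bp from the Exosc10 codon, 97930 bp from the Exosc2 codon and 83234 bp from the Ddx47 codon. A match to the motif is a description of the sequence and does not by itself mark a site.

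At the other summits the motif was not found within 100 bp. At Exosc8, Ddx31, Ddx42 and Ddx5 the summit fell between the basic transcript starts of 2 genes that run apart from each other. At Ddx5 the annotated gene start (106789185) lies beyond the summit (106789158), which is thus inside the annotated gene. For the 2 with the highest fold enrichment the whole stretch between the starts is given on the strand of the member, with the 11 bases centred on the summit in capitals.
Exosc8 and Alg5 (chr3:54735394-54735538, minus strand): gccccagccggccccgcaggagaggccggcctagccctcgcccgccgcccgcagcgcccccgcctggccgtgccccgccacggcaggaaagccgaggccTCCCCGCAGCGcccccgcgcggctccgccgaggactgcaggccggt
Ddx31 and Gtf3c4 (chr2:28840361-28840458, plus strand): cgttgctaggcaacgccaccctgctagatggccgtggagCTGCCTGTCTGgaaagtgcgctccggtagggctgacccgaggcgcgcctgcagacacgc
The 145 bases between Exosc8 and Alg5 were 83.4% GC with 21 CpGs and no ATGGC on either strand. The 98 bases between Ddx31 and Gtf3c4 were 67.3% GC with 9 CpGs and 1 ATGGC. They run into the annotated span of Ddx31, which begins at 28840406. The 30 bases around 3 other summits, with the summit base in capitals, are shown for the member with the highest fold enrichment, a ring subunit with an AT-rich summit and the member with the lowest fold enrichment.
Ddx59 (chr1:136415365-136415394, plus strand): ggccctgcgcctggAccggagcggcccgag
Exosc5 (chr7:25658887-25658916, plus strand): caatttttagtctcTaaaattgctccggtc
Dhx9 (chr1:153487695-153487724, minus strand): cgtgctggctccggaGttggcctaccgcgc
Their GC content was 83.3%, 36.7% and 73.3%, respectively, and over all 30 bound members it ran from 30% at Ddx20 to 86.7% at Exosc8.

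For each peak the deposited fold enrichment is the pileup at the summit over the local background expected from the background library, each raised by 1, and from it the number of fragments at the summit was recovered. Over the 30 bound members the fold enrichment had a median of 5.33 (95% interval from the ordered values 4.82 to 5.80) and ran from 2.86 to 9.46, and over all 4119 bound protein-coding genes it had a median of 5.13 and ran from 1.81 to 13.4. The members' summits held 10 to 24 fragments with a median of 16, over a local background of 1.54 to 4.94 fragments with a median of 1.98. These counts are small, so the Poisson intervals of the single members are wide. They cover the fragment count and hold the local background fixed, so its own counting error is left out. The intervals of Ddx59 and Exosc8 lay wholly above 5.13, that of Dhx9 lay wholly below it, and the other 27 held it. No correction was made for the 30 intervals, some of which can miss 5.13 by counting error alone. The order of members between these extremes is thus not resolved at this depth.

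**Figure D1:**
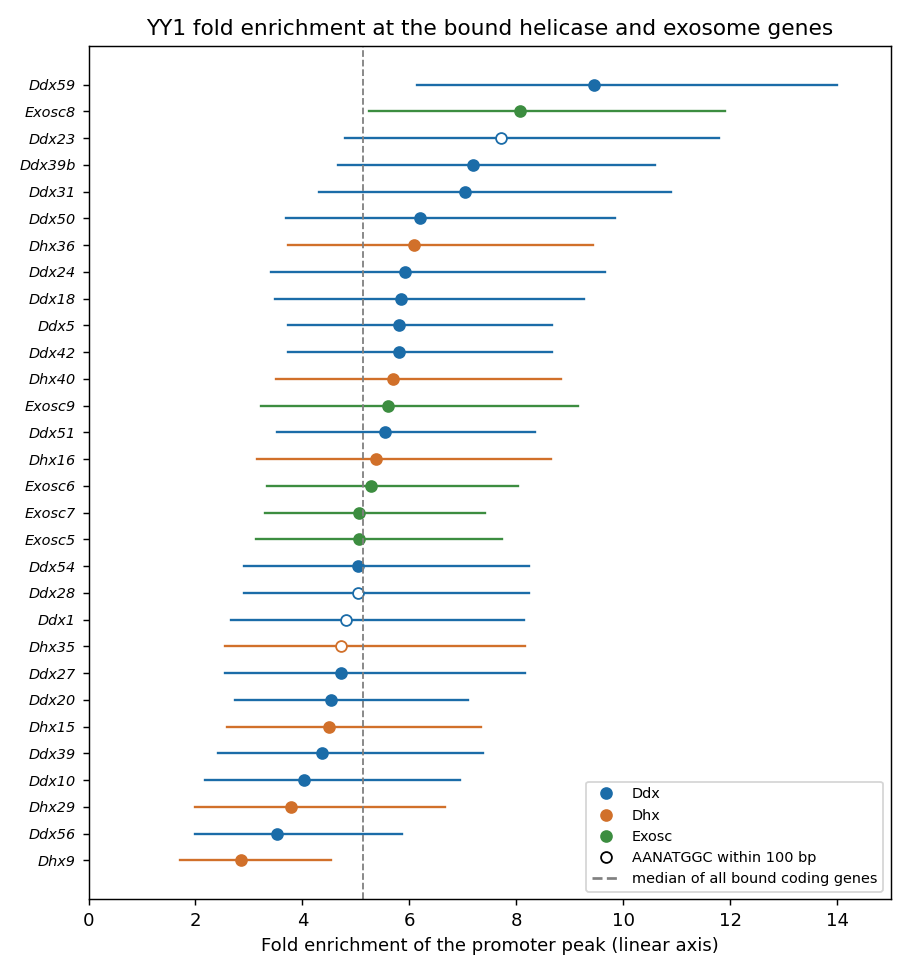
Fold enrichment (linear x axis) of the YY1 promoter peak at each of the 30 bound genes, with 95% Poisson intervals of the fragment count as lines and families in colour. Open circles have AANATGGC within 100 bp of the summit, and the dashed line at 5.13 is the median of all bound protein-coding genes, which only the intervals of Ddx59, Exosc8 and Dhx9 miss.

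Of the exosome ring, Exosc8, Exosc9, Exosc6, Exosc5 and Exosc7 were bound, all at a fold enrichment of at least 5. These subunits fold like the bacterial phosphorolytic nuclease but are inactive in mammals and form the channel through which RNA is threaded. Exosc8 (ENSMUSG00000027752.15, peak chr3:54735039-54735620) had 23 fragments over a background of 1.98, a fold enrichment of 8.07 (5.24 to 11.9), and its summit lay 41 bp upstream of the start. This was the highest value among the subunits, and 94.4% of bound protein-coding genes had a lower one. Exosc9 (ENSMUSG00000027714.11, peak chr3:36552490-36552706) had 14 fragments over 1.68, a fold enrichment of 5.60 (3.23 to 9.15), with the summit 22 bp upstream. Exosc6 (ENSMUSG00000109941.1, peak chr8:111056243-111056650) had 20 fragments over 2.97, a fold enrichment of 5.29 (3.33 to 8.03), with the summit 86 bp downstream in exon 1.

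The remaining 2 bound subunits had fold enrichments that are equal after rounding to 2 decimals, from different counts. Exosc5 (ENSMUSG00000061286.7, peak chr7:25658773-25659218) had 19 fragments over 2.96, a fold enrichment of 5.05 (3.14 to 7.74), with the summit 263 bp upstream. Exosc7 (ENSMUSG00000025785.5, peak chr9:123112799-123113408) had 24 fragments over 3.95, a fold enrichment of 5.05 (3.31 to 7.41), with the summit 19 bp upstream. The 24 fragments at Exosc7 were the largest count among all bound members, over the second highest local background. The q-values of the 5 subunits, from the authors' peak caller, ran from 2.61e-13 to 4.14e-06. The intervals of the 5 subunits overlapped, so no order among them is shown.

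The other 5 exosome genes had no summit in their windows. The ring subunit Exosc4 was the nearest of all unbound members, with a summit 3868 bp away that lay in the window of Gpaa1 and had a fold enrichment of 5.92. The cap subunits, which carry RNA-binding folds at the entrance of the channel, had their nearest summits at 21.4 kb (Exosc1), 97.9 kb (Exosc2) and 21.4 kb (Exosc3). For the nuclease Exosc10 the distance was 33.0 kb, to a summit in the window of Srm. For Exosc3 the peak, with 20 fragments and a fold enrichment of 5.30, lay in the window of Dcaf10 but inside the annotated span of Exosc3, because a longer transcript outside the basic set starts there. Counted from that start, Exosc3 was bound, and the exosome count became 6 of 10.

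Among helicases of splicing, 7 of 12 were bound (58.3%, 27.7 to 84.8%), with a median fold enrichment of 5.80. All 12 have a CpG-rich start, and the interval includes the 33.9% of protein-coding genes bound at such starts, though not the 18.8% of all protein-coding genes. Ddx23, the helicase that helps hand the splice site over during activation of the spliceosome, had 19 fragments over 1.59, a fold enrichment of 7.71 (4.80 to 11.8), with its summit 31 bp upstream (ENSMUSG00000003360.15, peak chr15:98662706-98663111). Its motif centre lay 44.5 bp from the summit, the smallest such distance among the 4 members with the motif. Ddx39b, which acts in spliceosome assembly and mRNA export, had 23 fragments over 2.34, a fold enrichment of 7.19 (4.67 to 10.6), with the summit 13 bp upstream (ENSMUSG00000019432.15, peak chr17:35241598-35242189). Dhx35, found in the active spliceosome, had 11 fragments over 1.54, a fold enrichment of 4.73 (2.56 to 8.16), with the summit 92 bp upstream (ENSMUSG00000027655.14, peak chr2:158794628-158794842). Its motif lay 62.5 bp from the summit.

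Ddx42 and Ddx5 lie on chromosome 11 and had the same values, 22 fragments over 2.96 and a fold enrichment of 5.80 (3.73 to 8.66), at 2 separate peaks. That of Ddx42, which associates with the branch-site recognition complex, spanned chr11:106216671-106217166 (ENSMUSG00000020705.6) with the summit 79 bp upstream. That of Ddx5, a splicing helicase that is also a transcriptional coactivator, spanned chr11:106788299-106789347 (ENSMUSG00000020719.14). Its summit lay 626 bp upstream of the basic transcript start (106788532). The annotated gene start (106789185) lies farther out, so the summit (106789158) is inside the annotated gene. The width of this peak, 1049 bp, was the largest among the members, whose median width was 384.5 bp. Dhx16, which remodels the spliceosome before the first step of splicing, had a fold enrichment of 5.38 with the summit 64 bp upstream. Dhx15, which takes spent spliceosomes apart, had 4.50 with the summit 332 bp downstream in intron 1. Not bound were Ddx17, Ddx41, Ddx46, Dhx38 and Dhx8, whose nearest summits lay 105, 64.3, 58.1, 42.8 and 74.8 kb away.

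Of the helicases that act in ribosome assembly, 9 of 16 were bound (56.2%, 29.9 to 80.2%), with a median fold enrichment of 5.55. A CpG-rich start was found at 15 of the 16, and here too the interval includes the 33.9% at such starts and lies above the 18.8% of all protein-coding genes. Ddx31 had 18 fragments over 1.70, a fold enrichment of 7.04 (4.32 to 10.9), with the summit 54 bp upstream (ENSMUSG00000026806.15, peak chr2:28839914-28840800). Its annotated gene start (28840406) lies next to the summit (28840405). Ddx50, a nucleolar helicase, had 16 fragments over 1.74, a fold enrichment of 6.20 (3.70 to 9.84), with the summit 213 bp upstream (ENSMUSG00000020076.7, peak chr10:62651093-62651612). Ddx24 had 14 fragments over 1.54, a fold enrichment of 5.92 (3.41 to 9.66), with the summit 85 bp upstream (ENSMUSG00000041645.14, peak chr12:103425771-103426015). Ddx18 had 16 fragments over 1.91, a fold enrichment of 5.84 (3.48 to 9.27), with the summit 50 bp downstream in exon 1 (ENSMUSG00000001674.11, peak chr1:121567820-121568100). The start of Ddx18 had the lowest share of unique sequence of all members, 75.5% of its 31-base stretches within 200 bp, where 57 of the 63 members had 100%.

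At the other ribosome assembly genes the peaks were lower. Ddx51, for rRNA maturation of the large subunit, had a fold enrichment of 5.55 with the summit 17 bp downstream. Ddx54 had 5.04, and its summit, 893 bp downstream in intron 1, was the most distant of all bound members. Ddx27, which acts in processing of the rRNA ends, had 4.73, and Ddx10 had 4.03. Ddx56, of large-subunit assembly, had 13 fragments over 2.96, a fold enrichment of 3.53 (2.0 to 5.86) and a q-value of 0.00737, with the summit 13 bp upstream (ENSMUSG00000004393.10, peak chr11:6267720-6267978). Not bound were Ddx21, Ddx47, Ddx49, Ddx52, Ddx55, Dhx33 and Dhx37, with nearest summits 49.1, 83.2, 19.6, 22.4, 12.2, 357 and 24.9 kb away. The summit nearest to Ddx21 was that of its neighbour and close relative Ddx50.

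Of the helicases of mRNA export, translation and decay, 2 of 8 were bound (25.0%, 3.19 to 65.1%), both under a fold enrichment of 5. This share is near the background, between the 18.8% of all protein-coding genes and the 33.9% at CpG-rich starts, which 7 of the 8 have. Ddx39, an export helicase closely related to Ddx39b, had 4.37 with the summit 5 bp downstream. Dhx29, which helps the small ribosomal subunit to scan structured mRNA leaders, had 10 fragments over 1.91, a fold enrichment of 3.78 (1.99 to 6.66) and a q-value of 0.012, with the summit 469 bp downstream in exon 1 (ENSMUSG00000042426.6, peak chr13:112927819-112928062). Its count of 10 fragments was the smallest among the bound members. Not bound were Ddx3x, Ddx3y, Ddx6, Ddx19a, Ddx19b and Dhx34. Their nearest summits lay at 208, 2750, 130, 58.6, 24.7 and 51 kb, and for both Ddx19a and Ddx19b it was the summit of Exosc6.

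Helicases with other roles included the highest and the lowest values. Ddx59, a helicase of uncertain molecular function whose mutation causes a developmental syndrome in people, had 23 fragments over 1.54, a fold enrichment of 9.46 (6.14 to 14) and a q-value of 1.40e-15 (ENSMUSG00000026404.12, peak chr1:136415219-136415545). Its summit lay 108 bp downstream in exon 1, and 98.3% of bound protein-coding genes had a lower fold enrichment. Dhx36, which resolves G-quadruplexes, had 18 fragments over 2.12, a fold enrichment of 6.08 (3.74 to 9.43), with the summit 118 bp downstream in exon 1 (ENSMUSG00000027770.5, peak chr3:62506714-62507095). Dhx40 had 5.70. Ddx1, a subunit of the tRNA ligase complex, had 12 fragments over 1.70, a fold enrichment of 4.82 (2.67 to 8.14), with the summit 166 bp downstream in intron 1 and 71.5 bp from its motif (ENSMUSG00000037149.10, peak chr12:13248894-13249233). Ddx20, which works with the SMN complex in snRNP assembly, had 4.53. Dhx9, RNA helicase A, had 16 fragments over 4.94, a fold enrichment of 2.86 (1.71 to 4.54) and a q-value of 0.0285 (ENSMUSG00000042699.11, peak chr1:153487275-153487711), and 0.85% of bound protein-coding genes had a lower value. The local background of 4.94 at Dhx9 was the highest among the members. Its start had 94.1% unique stretches. Not bound were Ddx11, Dhx32 and Dhx57, at 21.9, 67.6 and 82.8 kb.

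Of the mitochondrial helicases 1 of 2 was bound, and of the RNA sensing and germ cell helicases none of 6, beside 18.8% of all protein-coding genes. Ddx28, which assembles the mitochondrial ribosome, had 14 fragments over 1.98, a fold enrichment of 5.04 (2.91 to 8.23), with the summit 367 bp downstream in exon 1 and 91.5 bp from its motif (ENSMUSG00000045538.6, peak chr8:106011224-106011610). The other mitochondrial helicase, Dhx30, had its nearest summit at 14.3 kb. None of the 3 sensors of viral RNA, Ddx58 (RIG-I), Dhx58 and Ddx60, was bound, with distances of 28.8, 57.6 and 1040 kb. None of the 3 germ cell helicases, Ddx4 (vasa), Ddx25 and Ddx43, was bound, with distances of 188, 347 and 47.0 kb. With 3 genes in each of these groups, the intervals reach 70.8%, so neither group can be told apart from the share of all genes.

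**Figure D2:**
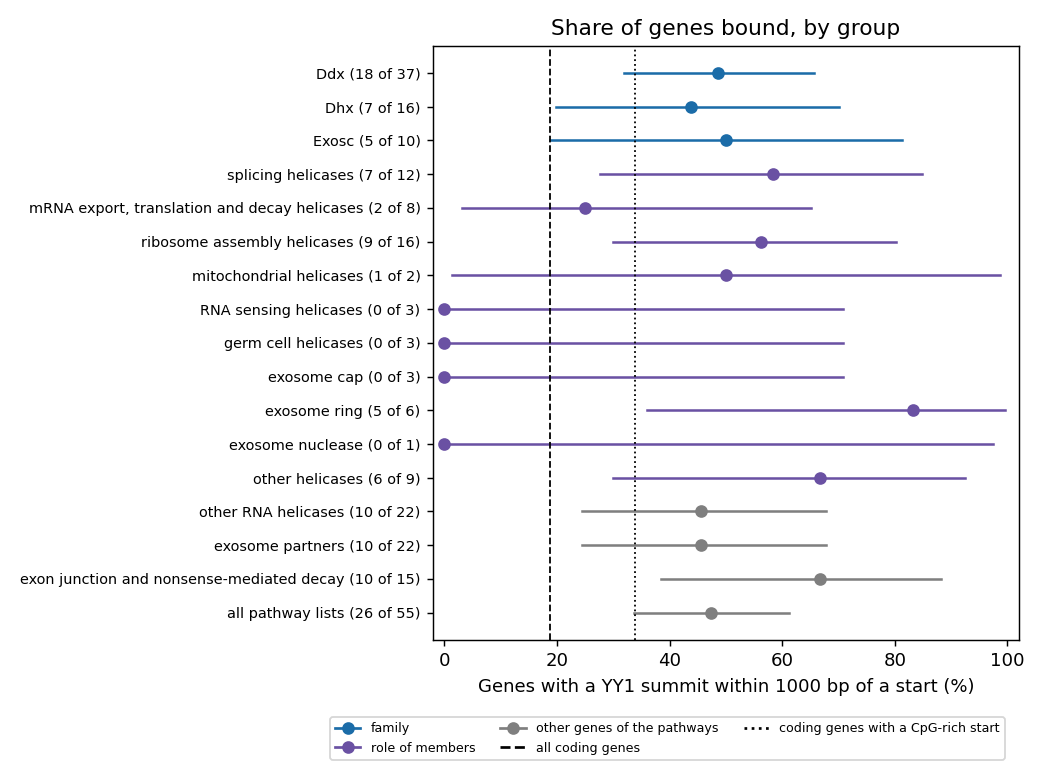
Share of genes with a YY1 summit within 1000 bp of a start (x axis, %), with 95% exact binomial intervals as lines, for the families, the roles of the members and the other genes of the pathways. The dashed line is the 18.8% of all protein-coding genes and the dotted line the 33.9% of those with a CpG-rich start. The exosome ring has the highest share, 83.3%, and the 4 groups at 0 hold 1 to 3 genes each.

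Across all 33 unbound members, the distance to the nearest summit had a median of 57.6 kb, and 32 of them were more than 10 kb from any. Just inside the limit of 1000 bp were Ddx54 (893 bp) and Ddx5 (626 bp), and just outside were Exosc4 (3868 bp) and Ddx55 (12241 bp). No member lay between 893 and 3868 bp. The value of Ddx5 counts from its basic transcript start, and its annotated gene start (106789185) lies closer to the summit (106789158). At the commonest level of local background, 1.54 fragments, the weakest peak had 8 fragments and a fold enrichment of 3.55, so weaker binding at the unbound members was not detectable at this depth.

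**Figure D3:**
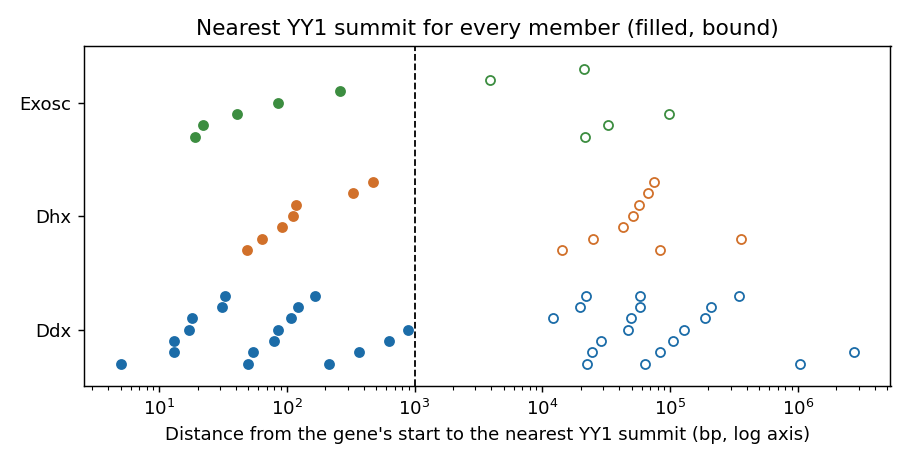
Distance from the start of each of the 63 genes to the nearest YY1 summit (x axis, bp, log scale), by family, with bound genes as filled circles and the limit of 1000 bp as a dashed line. No gene lies between 893 bp and 3868 bp.

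The summits at bound members lay close to the starts. The median distance was 82 bp, with a 95% interval from the ordered values of 41 to 118 bp that holds the 107 bp of all bound protein-coding genes. Of the summits, 18 of 30 (60%) were within 100 bp, beside 47.9%. Upstream of the start were 17 summits and downstream 13, of which 10 fell in exon 1 and 3 in intron 1 (Ddx54, Ddx1 and Dhx15). Exosome summits (5) had a median distance of 41 bp, Ddx summits (18) 66.5 bp and Dhx summits (7) 111 bp, and with so few genes no order of the families is shown. Beyond 300 bp were 5 members, Ddx5, Ddx54, Dhx29, Ddx28 and Dhx15, which is 16.7%, beside 16.6% of all bound protein-coding genes. All these positions use basic transcript starts. From its annotated gene start (106789185), the summit of Ddx5 (106789158) lies downstream and closer than 300 bp.

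**Figure D4:**
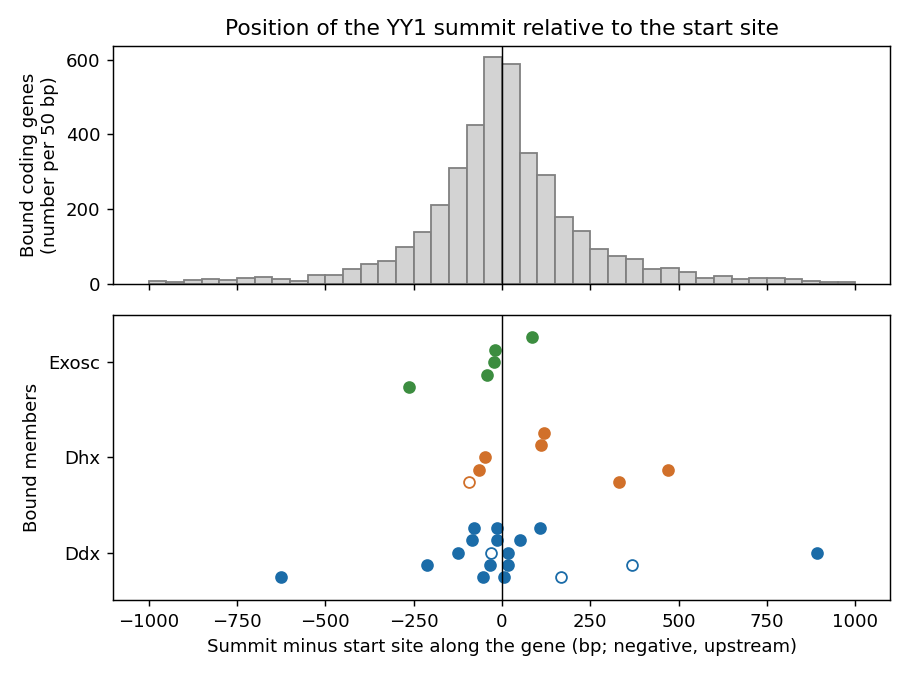
Position of the YY1 summit from the nearest start along the gene (x axis, bp, negative upstream), as the number of all bound protein-coding genes per 50 bp (upper panel) and for each bound member by family (lower panel, small vertical shifts only separate points). Open circles have AANATGGC within 100 bp; 18 of the 30 members lie within 100 bp of the start.

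Several of these peaks cannot be assigned to the member alone. At 9 of the 30 bound members (30%, 14.7 to 49.4%) the summit was also within 1000 bp of a start of another protein-coding gene, beside 25.7% of all bound protein-coding genes. All 9 neighbours ran on the opposite strand, and at 8 of them the 2 genes ran apart from each other. The summit was nearer to the start of the member for Exosc8 (41 bp, and 105 bp for Alg5, an enzyme of N-glycosylation), Ddx42 (79 bp, and 503 bp for Ccdc47), Ddx51 (17 bp, and 51 bp for Noc4l, itself a ribosome assembly factor) and Dhx29 (469 bp, and 525 bp for Mtrex). It was nearer to the neighbour for Ddx31 (54 bp, and 45 bp for Gtf3c4). Gtf3c4 is a subunit of a general factor of RNA polymerase III. The neighbour was also nearer for Ddx5 (626 bp, and 94 bp for Cep95), Exosc5 (263 bp, and 80 bp for Bckdha) and Exosc7 (19 bp, and 9 bp for Zdhhc3). These distances use basic transcript starts. From the annotated gene starts of Ddx31 (28840406) and Ddx5 (106789185), their summits (28840405 and 106789158) are nearer to the member.

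The peak of Dhx29 also lay in the window of Mtrex, and Mtrex encodes the helicase that feeds RNA into the nuclear exosome. Both starts lay 56 bp apart, and the whole peak lay inside Dhx29, with its summit in exon 1. At Ddx28 the 2 transcripts overlapped, with starts 375 bp apart, and the summit was 8 bp from the start of Dus2, an enzyme that modifies tRNA. Of the 5 bound exosome genes, 3 shared their peak with another coding gene (Exosc5, Exosc7 and Exosc8), and Exosc6 and Exosc9 shared it with no annotated gene. Noncoding genes shared the windows of Ddx59, Dhx15 and Ddx39b. The members with a shared window had a median fold enrichment of 5.55 and the other 21 had 5.29.

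**Figure D5:**
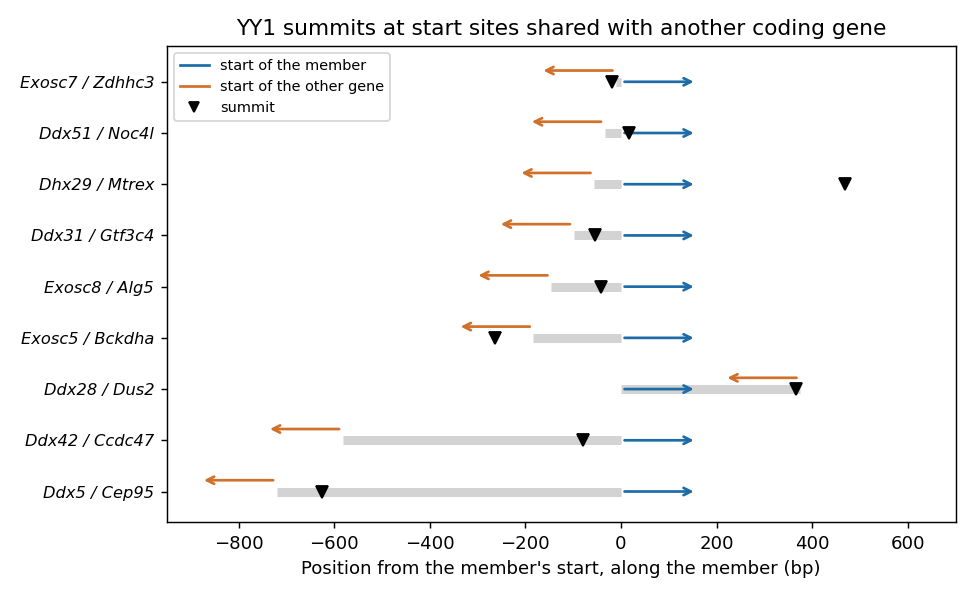
YY1 summits (black triangles) at the 9 start regions that a bound member shares with another protein-coding gene, by position from the start of the member along the member (x axis, bp). Blue arrows mark the basic transcript start and direction of the member, orange arrows those of the other gene, and the grey bar joins both starts. For Exosc8, Ddx31, Ddx42, Ddx5 and Ddx28 the summit falls between these starts.

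The motif was also sought in the promoter in place of the summit. In the window from 250 bp before to 50 bp after the annotated gene start, AANATGGC occurred on either strand in 12 of 63 members (19%), beside 6.16% of all protein-coding genes. It occurred in 5 of the 30 bound members (16.7%), Ddx23, Dhx15, Dhx29, Dhx35 and Dhx36, beside 8.98% of all bound protein-coding genes. It also occurred in 7 of the 33 unbound members (21.2%), Ddx19b, Ddx47, Ddx6, Dhx38, Dhx57, Exosc10 and Exosc2, beside 5.51% of all unbound protein-coding genes. The core ATGGC alone was in 50.8% of the members' windows and in 38.2% of all. Around the summits, 12 of the 30 bound members (40%) had ATGGC within 100 bp, beside 31.1% of all bound protein-coding genes.

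Other genes of the same pathways, listed by function, were bound in a like share. Of 55 genes, 26 were bound (47.3%, 33.7 to 61.2%), beside the 18.8% of all protein-coding genes. The interval of all 55 includes the 33.9% of protein-coding genes bound at CpG-rich starts. A CpG-rich start was found at 42 of the 55. Of these 42 genes 22 were bound, and no interval was computed for them. Among 22 RNA helicases outside the Ddx and Dhx families 10 were bound (45.5%, 24.4 to 67.8%), with the highest fold enrichment at Upf1 (10.1), the helicase of nonsense-mediated decay, Eif4a3 (8.28), of the exon junction complex, and Eif4a1 (7.79), of translation initiation. Among 22 exosome partners 10 were bound (45.5%, 24.4 to 67.8%), with the highest values at Nvl (8.15), a nucleolar ATPase, Skiv2l (7.78), the helicase of the cytoplasmic exosome, and Rbm7 (5.92), which brings the nuclear exosome to its RNA. Of the exon junction and nonsense-mediated decay genes 10 of 15 were bound (66.7%, 38.4 to 88.2%), led by Upf1, Smg6 (8.75), an endonuclease, and Smg1 and Eif4a3 (both 8.28). Smg1 is the kinase that acts on Upf1. The catalytic subunit of the exosome, Dis3, was bound with 11 fragments over 1.54, a fold enrichment of 4.73, and Mtrex through the peak shared with Dhx29, at 3.78.

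Close relatives among the members did not always share a call. Ddx39 and Ddx39b were both bound, at 4.37 and 7.19. Of Ddx5 and Ddx17, which act together in splicing, Ddx5 was bound and Ddx17 was 105 kb from a summit. Of the neighbours Ddx50 and Ddx21, Ddx50 was bound. Neither Ddx3x nor Ddx3y and neither Ddx19a nor Ddx19b was bound. These pairs were chosen after their values were seen. For 9 of these 10 genes, the 31-base stretches within 200 bp of the annotated start were 100% unique in the genome, and for Ddx50 98.1% of them were.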

How the data were processed

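MuSC chromatin was immunoprecipitated with a YY1 antibody in 1 sample, for which a peak list was available; the background sample was not analysed on its own and enters through the local background in that list. By the study's methods, reads were trimmed, filtered for quality and aligned to mm10 by Bowtie2; after removal of redundant reads the authors ran MACS2 with a p-value cutoff of 0.0001. Tool versions are not given in the sources used here. The deposited fold enrichment is a ratio of the summit pileup to the local background. The same program gave the −log10 p-value and the −log10 q-value, both used as deposited. Fragments at each summit were recovered as a whole number, together with the background, from the deposited fold and −log10 p-value for 100% of the 4681 peaks (fold within 0.001). These p-values compare 1 pair of libraries and do not describe variation between animals, and a deeper library would let weaker sites pass.

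Summits were placed within 1000 bp of transcript starts of GENCODE M21 basic protein-coding genes on GRCm38, chromosomes 1 to 19, X and Y, and the strongest summit stood for a gene. The CpG, promoter-window and uniqueness measures used the annotated gene start. Shares have 95% exact (Clopper-Pearson) intervals and fragment counts 95% Poisson intervals. The members and gene lists were chosen with earlier results of these data known, so no list was tested. Given in full are the 10 bound members with the highest fold enrichment (11 with a tie), bound exosome subunits, bound members with the motif within 100 bp, and the 3 with the lowest fold enrichment; of each pathway list the 3 highest bound genes are named (4 where tied), and other genes, such as Dis3 and Mtrex, were named after their values were seen. Placement, motif search and fragment recovery were tested on simulated data. Analyses ran in Python 3.11.15 with scipy 1.17.1, numpy 2.4.6, pysam 0.24.0, numba 0.67.0, pandas 2.3.3 and matplotlib 3.10.9. Alternatives were other limits on q and fold enrichment, other windows, start sites, annotations and motif forms; the motif anywhere in the peak and starts of protein-coding transcripts alone were chosen after seeing the data.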

Additional observations from a re-analysis of the deposited data

How the results depend on the processing

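Of 87 values recomputed under 17 alternative settings, 81 moved by less than their counting interval or, for counts, by no more than 1.5 times. The number of bound members ran from 20 to 31. At fold enrichments of 5 or more, members fell from 30 to 20 and Ddx genes from 18 to 12, each exactly 1.5 times, the Dhx count was 3, the pathway genes 16 and all protein-coding genes bound 2445. With a window of 1000 bp upstream to 100 bp downstream, the members bound fell to 22 and the Dhx count was again 3, because Ddx1, Ddx28, Ddx54, Ddx59, Dhx15, Dhx29, Dhx36 and Dhx40 have summits farther downstream. With a q-value below 0.01, Dhx29 and Dhx9 were lost, and with 500 bp around the basic transcript starts Ddx5 and Ddx54. Exosc3 was gained from the annotated gene start or the comprehensive annotation, and Exosc4 with 5000 bp. With RefSeq starts 27 members were bound, and the 3 that were lost (Ddx23, Ddx39 and Exosc9) are not among the 55 members matched in that table. The share of bound members with the motif was 3.33% within 50 bp (4.25% of all bound protein-coding genes), 23.3% within 200 bp (14.8%), 26.7% in the whole peak (15.8%), 6.67% for AAGATGGC (4.71%) and 40% for ATGGC (31.1%). No paired analysis was possible because the peaks come from 1 library, and for the same reason no replicate could be left out. Summits of 10 to 24 fragments limit the order of members, and calls near the limit of detection could change with depth.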
